A study of Mus musculus with 24 samples.

Results

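The expression of 32 genes of cholesterol and fatty acid synthesis was followed through endoplasmic reticulum (ER) stress in mouse embryonic fibroblasts of 5 genotypes. The genes were a fixed list of pathway members: 18 enzymes of the sterol pathway, 5 regulators of the SREBP system, 3 genes of sterol transport and 6 genes of fatty acid synthesis. They were part of 20138 genes named on the array, of which 14864 passed the filter on dim probes and were tested. All 32 members were among those tested, each through the brightest of its probes.

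Cells make cholesterol from acetyl-CoA through mevalonate, farnesyl diphosphate and squalene, and they make saturated and monounsaturated fatty acids from the same precursor through malonyl-CoA. The genes of both routes are switched by SREBP transcription factors, membrane proteins of the ER that SCAP carries to the Golgi for cleavage when sterols are scarce, and that INSIG proteins hold back when sterols are plentiful. The ER is also where tunicamycin, an inhibitor of N-glycosylation, causes unfolded proteins to build up, which activates the kinase PERK, the phosphorylation of the translation factor eIF2α and, through it, the transcription factor ATF4.

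The cells lacked ATF4 (ATF4KO), lacked PERK (PERKKO), carried an eIF2α that cannot be phosphorylated (eIF2a A/A), carried the transgene Fv2E-PERK, a PERK fusion that the dimerising drug AP switches on without ER stress, or were wild type (WT). ATF4KO, PERKKO, eIF2a A/A and WT cells were treated with 2 µg/mL tunicamycin for 12 h (Tun), Fv2E-PERK cells were treated with AP for 12 h, and every genotype had untreated (UT) arrays. The labels give no time for untreated arrays, and 1 untreated PERKKO array is named for a mock treatment longer than 12 h. The labels do not say whether each genotype was 1 clone or line, which promoter drives Fv2E-PERK or which host cells carry it, or whether replicates were separate cultures, so the p-values cover array-to-array variation that may be technical in part or whole. Each group had 2 one-colour arrays except WT, which had 4 treated and 4 untreated arrays. The WT arrays belong to 2 lines that were scanned in different runs: replicates 1 and 2 were scanned with ATF4KO cells in run 1 and are named as the wild type of the ATF4 pair, and replicates 3 and 4 were scanned with PERKKO cells in run 2 and are named as the wild type of the PERK pair. They were kept apart throughout, and line and scan run cannot be told apart.

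Levels are log2 of the processed signal relative to the 75th percentile of the same array. The percentile lay between 111 and 418 intensity units, 45.1% to 58.2% of probes were well above background, and no spot was saturated. The lowest percentile was that of treated ATF4KO replicate 1, with 45.5% of probes well above background. The next lowest was 207.9, of treated WT replicate 1. The median SD between duplicate arrays was larger in run 1 (0.214 to 0.317 log2) than in run 3, which held eIF2a A/A and Fv2E-PERK (0.0594 to 0.0907), while the limma fit gives all genotypes 1 common spread. Within run 1 all treated arrays shared a slide and all untreated arrays another, so treatment cannot be told apart from slide or scan day there, whereas ATF4KO and WT arrays lay side by side on both slides and on each of 4 scan days. Atf4 was at -4.27 and 0.01 in treated and 2.79 and -0.05 in untreated ATF4KO cells, against 8.70 and 8.63 in treated and 7.22 and 7.20 in untreated WT cells of run 1. Eif2ak3, which encodes PERK, was at 0.00 and 0.28 in treated and 0.00 and -0.47 in untreated PERKKO cells, against 1.75 and 1.79 in treated and 0.80 and 1.04 in untreated WT cells of run 2. The targets of the labels were thus lower in both knockouts, although the probes may lie outside the deleted parts. In PERKKO cells this was not particular to Eif2ak3. Of 8 check genes, among them Eif2ak3, Atf4 and Hspa5, 7 were called lower in untreated PERKKO than in untreated WT cells of run 2 (median -1.10). The ER chaperone gene Hspa5 rose with tunicamycin in all 5 lines that received it, by 1.25 (PERKKO) to 2.32 (WT of run 1).

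All 9 fibroblast markers were well above background on all 24 arrays, but their levels differed between lines. Their summed linear level was 290 to 305 in untreated PERKKO cells, against 1324 to 1345 in untreated WT cells of run 2. In that comparison 8 of the 9 were called lower in PERKKO cells, with a median difference of -2.28. The epithelial keratin gene Krt18 was at 5.43 to 5.82 in PERKKO cells, and the summed linear level of 4 epithelial markers was 43.9 to 58.2 there against at most 1.29 in other cells. Both PERKKO arrays on a slide of their own, treated replicate 1 and untreated replicate 2, also carried signal for the adipocyte gene Adipoq (0.35 and 0.66) and the hepatocyte gene Alb (-1.48 and -0.09). Neither PERKKO array on the WT slide was well above background for these genes (-7.03 and -6.78 for Adipoq). The summed level of 6 adipocyte markers was 0.865 to 5.87 in treated and 0.798 to 7.28 in untreated PERKKO cells, and that of 4 hepatocyte markers 0.099 to 1.58 and 0.098 to 2.93. In Fv2E-PERK cells the hepatocyte sum was 5.22 to 5.87 with AP and 4.65 to 5.02 without, and in all remaining lines it was at most 0.167. The Fv2E-PERK sum was carried mainly by 1 gene, Ttr. Its highest level on any array was 2.54, against 0.32 for Serpina1a, -0.09 for Alb and -3.38 for Apoa1. The part of these transcripts in the PERKKO and Fv2E-PERK values below was not tested. Outside PERKKO cells Adipoq was not well above background on any array.

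The promoters of 25 members were held in a RefSeq table of assembly GRCm38.p6, as 33 windows of 300 bases, from 250 before to 50 after an annotated start. Of them 4 are shown, of genes on which the comparisons below turn: Hmgcs1, the entry enzyme shown for its sterol response element, Idi1, with the largest fall in ATF4KO cells, Msmo1, with the largest difference between ATF4KO and WT responses among the enzymes, and Insig1, which moved in opposite directions in both WT lines. Capitals mark the sterol response element core TCACNCCAC and the CCAAT box (CCAAT, or ATTGG on the other strand), both motifs of SREBP-driven promoters. The windows are chr13:119690101-119690400 (plus strand, Hmgcs1), chr13:8885356-8885655 (plus strand, Idi1), chr8:64733529-64733828 (minus strand, Msmo1) and chr5:28071162-28071461 (plus strand, Insig1), each printed 5′ to 3′ on the strand of its gene.
Hmgcs1: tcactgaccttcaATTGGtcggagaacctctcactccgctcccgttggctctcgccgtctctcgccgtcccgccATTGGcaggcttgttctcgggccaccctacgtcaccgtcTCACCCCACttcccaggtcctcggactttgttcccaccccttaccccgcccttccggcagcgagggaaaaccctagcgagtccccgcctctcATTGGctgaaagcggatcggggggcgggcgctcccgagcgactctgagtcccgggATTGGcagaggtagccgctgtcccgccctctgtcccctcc
Idi1: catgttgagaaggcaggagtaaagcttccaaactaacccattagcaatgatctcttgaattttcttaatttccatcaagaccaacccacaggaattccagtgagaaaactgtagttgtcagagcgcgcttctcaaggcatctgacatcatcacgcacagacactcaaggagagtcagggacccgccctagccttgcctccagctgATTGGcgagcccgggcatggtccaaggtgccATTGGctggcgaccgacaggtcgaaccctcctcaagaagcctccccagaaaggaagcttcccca
Msmo1: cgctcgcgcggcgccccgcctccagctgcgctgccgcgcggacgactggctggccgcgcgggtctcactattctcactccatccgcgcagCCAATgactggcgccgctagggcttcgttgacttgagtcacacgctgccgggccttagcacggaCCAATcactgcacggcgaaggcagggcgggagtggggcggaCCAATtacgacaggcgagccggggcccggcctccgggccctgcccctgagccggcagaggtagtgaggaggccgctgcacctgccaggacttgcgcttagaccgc
Insig1: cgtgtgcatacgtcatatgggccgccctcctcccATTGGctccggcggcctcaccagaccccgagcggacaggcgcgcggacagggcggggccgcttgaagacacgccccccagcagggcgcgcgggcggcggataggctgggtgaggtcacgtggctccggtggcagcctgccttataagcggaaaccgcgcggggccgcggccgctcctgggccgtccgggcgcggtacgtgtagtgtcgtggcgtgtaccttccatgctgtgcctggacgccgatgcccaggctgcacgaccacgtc

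The exact sterol response element core was found on either strand in 1 of 33 member windows, in Hmgcs1 at 137 bases before the start, and in 1.24% of all 32851 windows of the table. A CCAAT box was in 21 of 33 member windows (63.6%) and in 14 of 18 windows of sterol enzymes (77.8%), against 37.4% of all windows. A GC box (GGGCGG, the site of SP1-type factors) was in 25 of 33 member windows (75.8%), against 35.7% of all windows and 57.9% of the 14913 windows of tested genes. The E-box CACGTG was in 7 member windows of 6 genes (21.2%), 1 of them that of Insig1. This stood against 7.15% of all windows and 9.31% of those of tested genes. The ATF4 composite element TTGCATCA was in 1 member window (3.03%, against 0.895% of all), that of Insig2. These are matches of letters in a short window, searched on both strands, and none of the 5 motifs contains another.

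In ATF4KO cells the sterol pathway fell with tunicamycin almost throughout. Of the 32 members, 0 were higher and 26 lower after treatment, where 13.3% of all tested genes were called higher and 18.2% lower (limma, adjusted p under 0.05). At an unadjusted p under 0.05, 1 was higher and 27 lower. The median change was -1.98 log2 over the members and -0.02 over all tested genes. In such bulk samples fewer cells with a transcript and less of it per cell cannot be told apart. All 7 mevalonate enzymes and 10 of 11 enzymes from squalene to cholesterol were lower, and Ebp, the sterol isomerase, was the exception (-0.06 ± 0.17, SE). Of the fatty acid genes 5 of 6 were lower, with a median of -1.26 against -2.29 for the 18 sterol enzymes. The summed linear level of the 6 adipocyte markers, carried by Fabp4 and Pparg, was 1.68 to 3.05 in treated and 6.47 to 7.58 in untreated ATF4KO cells, and that of the 9 fibroblast markers 955 to 966 and 839 to 1496. Their part in the falls was not tested.

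The steepest fall was that of Idi1, the isomerase that makes the building blocks of farnesyl diphosphate. Its level was 0.17 and 0.13 in treated ATF4KO cells, against 3.86 and 5.65 in untreated ATF4KO cells. The treated arrays lay together far below both untreated ones, which themselves differed by more than 1 log2 unit, and the change was -4.61 ± 0.45 (24.4-fold lower, adjusted p = 9.61e-06, limma). Msmo1, a sterol C4-methyl oxidase, was at 2.31 and 2.56 in treated and 5.38 and 6.80 in untreated ATF4KO cells (-3.65 ± 0.42, adjusted p = 3.02e-05, limma). Hmgcs1, the cytosolic HMG-CoA synthase, was at 3.07 and 3.16 in treated and 5.49 and 6.79 in untreated ATF4KO cells (-3.03 ± 0.40, adjusted p = 9.63e-05, limma). For both genes the treated and untreated arrays did not overlap. The sterol dehydrogenase gene Nsdhl changed by -3.52, the squalene epoxidase gene Sqle by -2.82, the farnesyl diphosphate synthase gene Fdps by -2.82 and the lanosterol demethylase gene Cyp51 by -2.73. At the other end, the thiolase gene Acat2 changed by -0.61 and the reductase gene Tm7sf2 by -1.10.

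In WT cells of run 1, scanned on the same slides, 10 members rose and 3 fell with the same treatment. This stood beside 20.0% and 16.5% of all tested genes, with a median of 0.25 against 0.11. The split into rises and falls rested on single arrays. The median was -0.03 without treated replicate 1 and -0.13 without untreated replicate 1, against 0.46 without treated replicate 2. The adipocyte sum was 1.88 to 3.05 in treated and 4.32 to 11.02 in untreated cells of this line, and the fibroblast sum 636 to 769 and 888 to 1083. Of the 9 fibroblast markers 4 were called lower, with a median of -0.60. Their part in the members' changes was not tested. Msmo1 was at 6.19 and 5.81 in treated WT cells of run 1, against 3.38 and 4.88 in untreated ones (1.87 ± 0.42, adjusted p = 0.00297, limma). Hmgcs1 was at 3.90 and 3.83 in treated and 3.39 and 5.01 in untreated cells, so that the treated arrays lay between the untreated ones. The decarboxylase gene Mvd (1.34), Fdps (1.21), the lanosterol synthase gene Lss (1.17), Ebp (1.07), the squalene synthase gene Fdft1 (0.87) and Sqle (0.60) were called higher, and Acat2 (-1.19) and the keto-reductase gene Hsd17b7 (-0.81) lower.

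The difference between the ATF4KO and the WT response of run 1 was below zero for 27 members and above it for 2 at an adjusted p under 0.05, where 20.0% and 13.3% of all tested genes were called lower and higher. Its median was -1.99 over the members, -2.70 over the sterol enzymes, -1.52 over the fatty acid genes and -0.14 over all tested genes. The differences furthest below zero were those of Msmo1 (-5.52 ± 0.59, adjusted p = 1.63e-05, limma), Insig1 (-4.52 ± 0.33, adjusted p = 9.63e-07), Idi1 (-4.36 ± 0.64, adjusted p = 0.000185) and Fdps (-4.03 ± 0.33, adjusted p = 2.24e-06). Both members above zero were the exporters Abca1 (5.38 ± 1.22, adjusted p = 0.0039, limma) and Abcg1 (3.64 ± 1.12, adjusted p = 0.0222). They rest on dim groups, since Abca1 was not well above background on either treated WT array and Abcg1 on neither untreated ATF4KO array. All 6 fatty acid genes were called, from Acly (-1.18) to Elovl6 (-2.29). Acat2 (0.58 ± 0.28) was the only sterol enzyme with a difference above zero, and it was not called. With only the 8 arrays of run 1 in the fit, 8 members were called in the ATF4KO response and 8 in this difference, all lower, where 0.531% and 1.12% of all tested genes were called lower. The 8 of the difference were Mvk, Mvd, Fdps, Fdft1, Sqle, Lss, Msmo1 and Insig1.

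**Figure D1:**
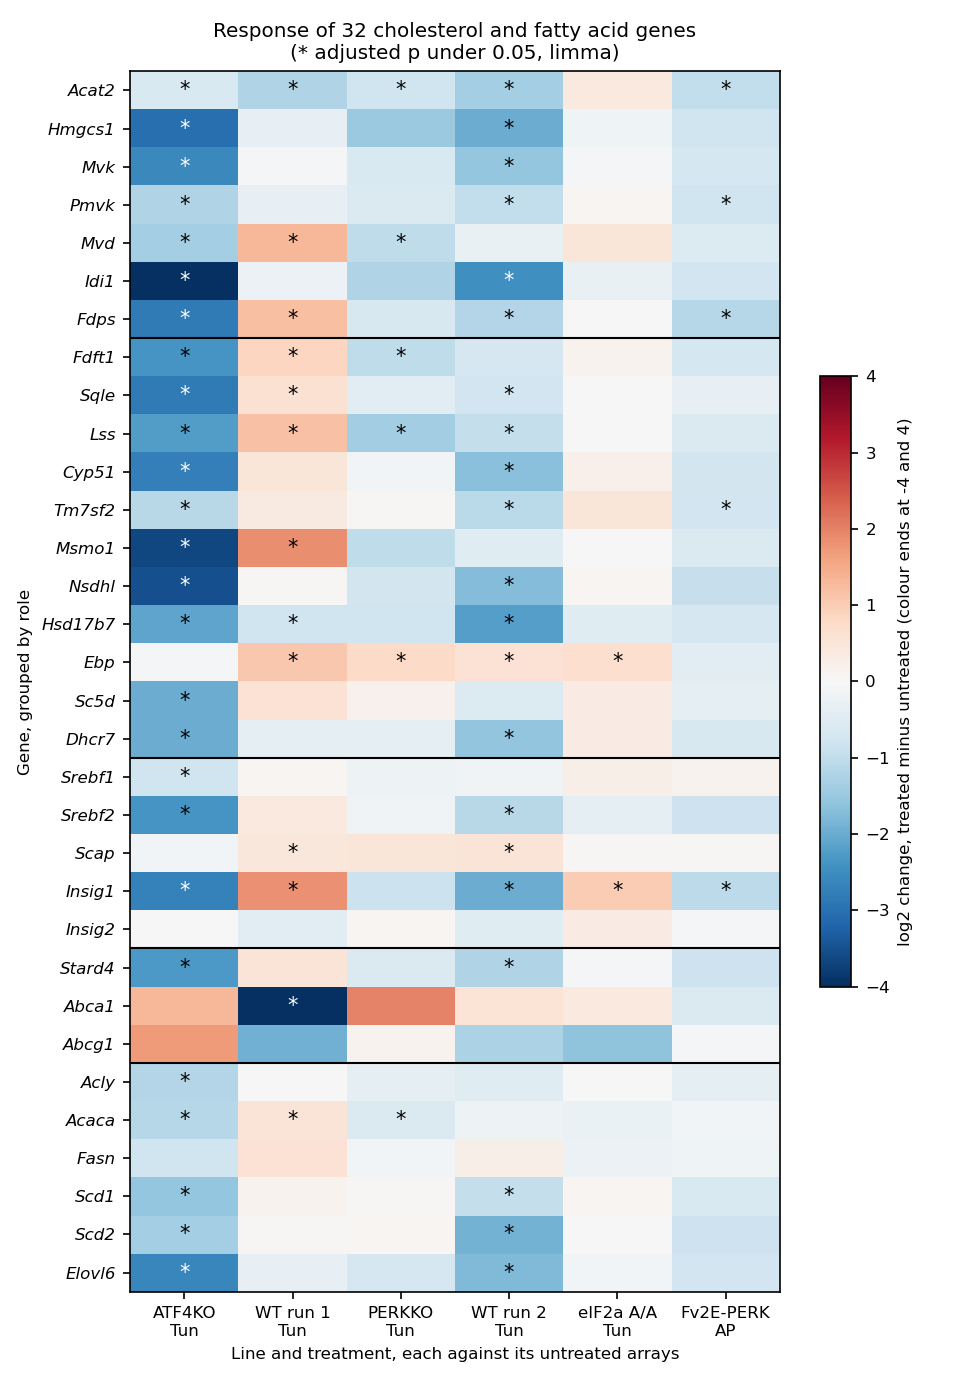
Heat map of log2 changes, treated minus untreated (colour, with its ends at -4 and 4), for the 32 genes in rows and 6 lines in columns; asterisks mark an adjusted p under 0.05 in the limma fit, and lines part mevalonate enzymes, later sterol enzymes, regulators, transport and fatty acid genes. The ATF4KO column is blue from Acat2 to Dhcr7 except at Ebp, and over the same 18 enzymes changes run from -1.19 to 1.87 in WT of run 1 and from -2.46 to 0.58 in WT of run 2.

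Untreated ATF4KO cells had more of these transcripts than untreated WT cells of run 1. Of the members 23 were higher and 2 lower, beside 11.3% and 12.5% of all tested genes, with a median of 1.19 against 0.05. This difference shares its untreated arrays with the responses above, so the values are given side by side and not counted together. Cyp51 was 2.56 ± 0.29 higher in untreated ATF4KO cells (adjusted p = 1.59e-05, limma), Insig1 2.10 ± 0.23 (adjusted p = 1.44e-05), Msmo1 1.96 ± 0.42 (adjusted p = 0.00322) and Hmgcs1 1.95 ± 0.40 (adjusted p = 0.00261). The median was 1.30 over the sterol enzymes and 1.23 over the fatty acid genes, of which 5 of 6 were called, led by Scd2 (1.87) and Elovl6 (1.73). The exceptions were Insig2 (-0.75), the second INSIG gene, and Abcg1. Abcg1, a sterol exporter, was not well above background on either untreated ATF4KO array and was at least 13.2-fold lower there than in untreated WT cells. With only the arrays of run 1 in the fit 5 members were called, Mvk, Mvd, Fdps, Cyp51 and Insig1, all higher, where 1.76% of all tested genes were.

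In run 1 the untreated arrays of the second scan day had lower levels of sterol genes than those of the fourth, in both genotypes. The mean of the 18 sterol enzymes was 3.42 and 4.15 in untreated ATF4KO cells on these days, against 2.15 and 2.79 in untreated WT cells. Set against the WT array of its own slide and day, untreated ATF4KO was higher for 18 of 18 sterol enzymes and 6 of 6 fatty acid genes on each day, with sterol medians of 1.21 and 1.44. Treated ATF4KO was lower than treated WT for 15 of 18 sterol enzymes on day 1 (median -1.07) and 16 of 18 on day 3 (median -0.82). It was lower for 6 of 6 fatty acid genes on day 1 and 4 of 6 on day 3, where Scd2 was 1.28 and Scd1 0.04 higher in ATF4KO. For most sterol enzymes ATF4KO thus lay above WT on both untreated days and below it on both treated days.

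**Figure D2:**
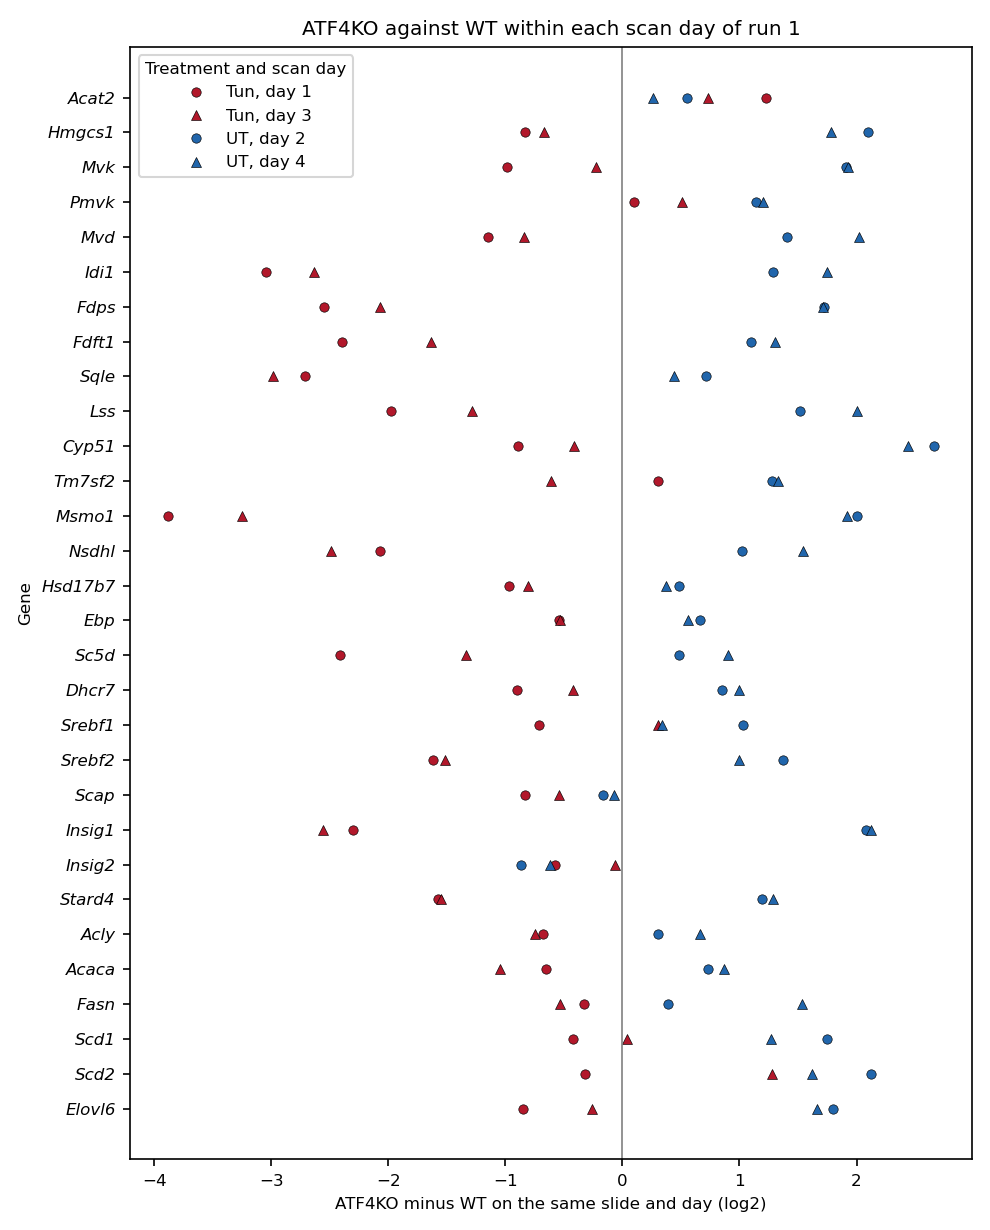
ATF4KO minus WT level (log2) on the same slide and scan day of run 1, for 30 genes in rows; red marks are treated cells (days 1 and 3) and blue marks untreated cells (days 2 and 4), 1 pair of arrays a mark. Abca1 and Abcg1 are left out as too dim; blue marks lie right of zero for all 18 sterol enzymes, and red marks reach -3.88 at Msmo1.

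In the WT line of run 2 the pathway fell with tunicamycin. Of the members 2 were higher and 19 lower, beside 11.9% and 8.82% of all tested genes, with a median of -1.03 over the members and 0.04 over all tested genes. Idi1 was at 1.99 and 2.34 in treated cells, against 4.61 and 4.63 in untreated cells (-2.46 ± 0.45, adjusted p = 0.00142, limma). Hmgcs1 was at 3.84 and 3.95 in treated and 5.81 and 5.93 in untreated cells (-1.97 ± 0.40, adjusted p = 0.00291, limma). The treated arrays of both genes lay well below the untreated ones, and duplicates lay close together. Hsd17b7 (-2.21), Nsdhl (-1.74), Cyp51 (-1.66), Dhcr7 (-1.57), which encodes the 7-dehydrocholesterol reductase, and Mvk (-1.54), which encodes mevalonate kinase, also fell. Among fatty acid genes Scd2 (-1.90), Elovl6 (-1.76) and Scd1 (-0.94) fell, the genes of desaturation and elongation, and Acly (-0.48), Acaca (-0.21) and Fasn (0.24), which encode the steps from citrate to palmitate, were not called. The adipocyte sum was 2.39 to 2.46 in treated and 4.04 to 4.06 in untreated cells, and the fibroblast sum 842 to 848 and 1324 to 1345, with 2 of 9 fibroblast markers called lower. Their part in the falls was not tested.

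The WT lines thus differed in their responses. The difference, run 2 minus run 1, was called below zero for 16 members and above it for 1, beside 3.0% and 4.77% of all tested genes, with a median of -1.42 against -0.03. For all 18 sterol enzymes and all 6 fatty acid genes it was below zero. The member above zero was Abca1 (4.59 ± 1.22, adjusted p = 0.0335, limma), which was not well above background on either treated array of run 1. Insig1 had the difference furthest below zero: it was at -2.36 and -2.11 in treated and -0.20 and -0.33 in untreated cells of run 2, against 0.77 and 0.55 in treated and -1.42 and -0.89 in untreated cells of run 1. It fell in run 2 (-1.97 ± 0.23, adjusted p = 4.1e-05, limma) and rose in run 1 (1.82 ± 0.23, adjusted p = 3.73e-05), a difference of -3.79 ± 0.33 (adjusted p = 3.25e-05). Fdps, Insig1, Lss and Sqle were called in opposite directions, 4 of the 19 that fell in run 2 and 4 of the 10 that rose in run 1. Acat2 and Hsd17b7 fell in both lines, and Ebp and Scap, the escort of SREBP, rose in both.

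Before treatment the mean of the sterol enzymes was 3.35 and 3.33 in WT cells of run 2, against 2.15 and 2.79 in run 1. After treatment it was 2.12 and 2.24 in run 2, against 3.0 and 2.64 in run 1. The lines therefore stood in opposite order before and after treatment, in means that were not tested across runs. The stress markers Hspa5 and Ddit3, which encodes CHOP, changed by 2.05 and 4.61 in run 2 and by 2.32 and 4.74 in run 1, and the differences between lines were -0.27 ± 0.18 and -0.12 ± 0.28, neither of them called. With only the arrays of both runs in the fit 6 members were called lower and 0 higher in the difference, among them Insig1, beside 0.848% of all tested genes called lower. Without treated replicate 3 the median difference was -1.34, and fewer members and fewer of all tested genes were called. Averaged over both lines, the WT response had 3 members higher and 14 lower, beside 22.1% and 17.6% of all tested genes, and its medians of -0.47 for sterol enzymes and -0.32 for fatty acid genes stand between unlike lines.

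**Figure D3:**
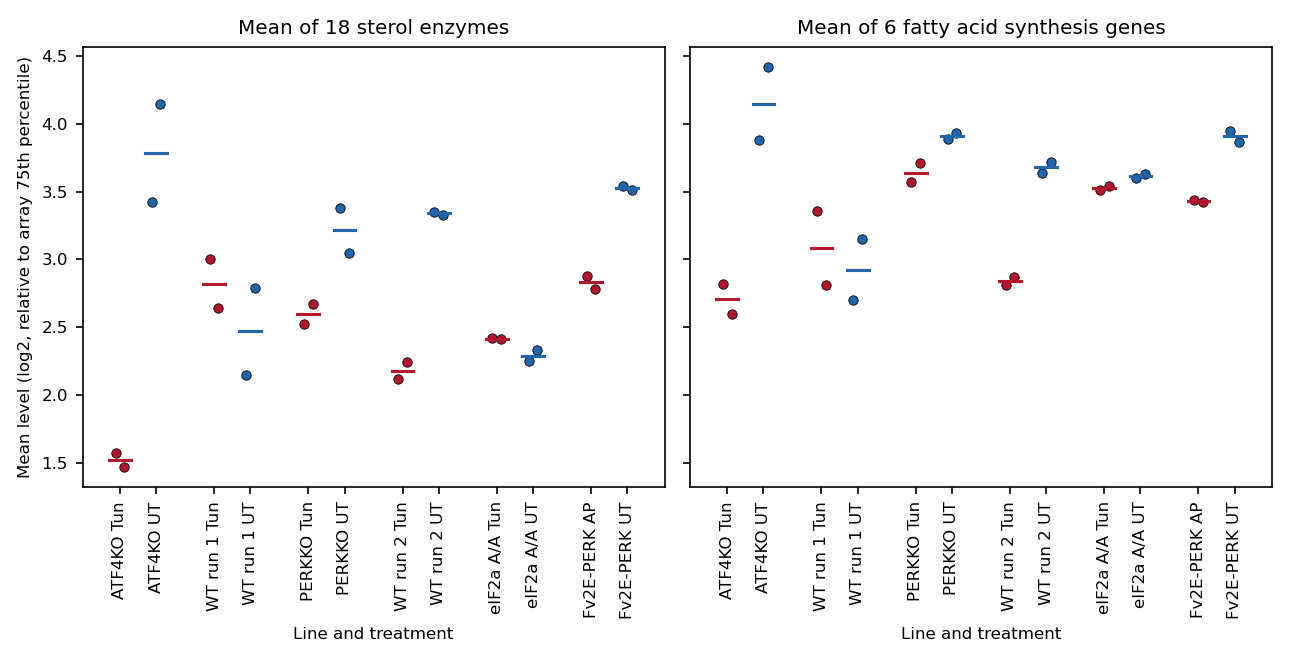
Mean level per array (log2, relative to the array 75th percentile) of 18 sterol enzymes, left, and 6 fatty acid synthesis genes, right; each point is 1 array, bars are means of 2, red is treated (Tun or AP) and blue untreated. The sterol mean was 1.57 and 1.47 in treated ATF4KO cells and 2.42 and 2.41 in treated eIF2a A/A cells.

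In PERKKO cells fewer members passed the test. Of the 32, 1 was higher and 5 lower, beside 2.45% and 0.747% of all tested genes, and the median was -0.51 against 0.02. Lss (-1.39), Mvd (-1.01), Fdft1 (-1.01), Acat2 (-0.79) and Acaca (-0.59), the acetyl-CoA carboxylase gene, fell, and Ebp rose (0.75). Hmgcs1 was at 3.70 and 3.88 in treated and 5.28 and 5.27 in untreated PERKKO cells, without overlap, and its change of -1.48 ± 0.40 was not called. Leaving out 1 PERKKO array gave medians over the members of -0.60 to -0.34. With only the PERKKO arrays on the WT slide, those without Adipoq and Alb well above background, the median was -0.46. In these fits fewer members, and fewer of all tested genes, were called. With only the arrays of run 2 in the fit 9 members were called, all lower, where 1.72% of all tested genes were called lower.

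Set against WT of run 2, the PERKKO response was higher for 4 members and lower for 0 in the limma fit (10 and 2 at an unadjusted p under 0.05), beside 4.09% and 3.98% of all tested genes. The median difference was 0.62 over the members and -0.03 over all tested genes. Over the 9 fibroblast markers it was 1.02, with 3 called higher and 0 lower. Their summed level was 347 to 387 in treated and 290 to 305 in untreated PERKKO cells. Their part in the members' values was not tested. Scd2, a stearoyl-CoA desaturase gene, was at 7.35 and 7.53 in treated and 7.45 and 7.30 in untreated PERKKO cells, against 5.22 and 5.24 in treated and 7.13 and 7.12 in untreated WT cells. The PERKKO arrays all lay above the untreated WT level, and the responses differed by 1.96 ± 0.43 (adjusted p = 0.0109, limma). Cyp51 (1.55), Hsd17b7 (1.42) and Tm7sf2 (1.12) were the other members called. With only the PERKKO arrays on the WT slide, each PERKKO group keeps 1 array and is assumed to vary like the others. The median difference was then 0.77, and fewer members and fewer of all tested genes were called. When 1 array was left out the median was 0.55 to 0.73, with no more members and fewer of all tested genes called. Untreated PERKKO cells were higher than untreated WT cells for 6 members and lower for 4, beside 15.7% and 24.2% of all tested genes. The highest called were Abcg1 (2.80), Srebf1 (1.55), Tm7sf2 (1.39) and Scd1 (0.91), and the lowest Mvk (-1.17) and Cyp51 (-1.03).

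In eIF2a A/A cells few genes were called with tunicamycin, among the members as among all tested genes. Of the members 2 were higher and 0 lower in the limma fit (4 and 2 at an unadjusted p under 0.05), beside 3.75% and 2.45% of all tested genes, and the median was 0.05 against 0.01. Ebp rose by 0.67 ± 0.17 (adjusted p = 0.0274, limma) and Insig1 by 1.02 ± 0.23 (adjusted p = 0.0185). Insig1 was at -0.86 and -0.60 in treated and -1.82 and -1.68 in untreated eIF2a A/A cells. Hmgcs1 was at 3.91 and 3.94 in treated and 4.0 and 4.17 in untreated cells, and Idi1 at 3.40 and 3.22 against 3.51 and 3.72. The sterol enzymes ranged from -0.50 (Hsd17b7) to 0.67 (Ebp), and the fatty acid genes from -0.27 (Acaca) to 0.09 (Scd1). Fewer genes were called when any 1 eIF2a A/A array was left out, among the members as among all tested genes. The median over the members was then -0.02 to 0.07. When only the less variable arrays of run 3 were fitted, 9 members were called, 5 higher and 4 lower. There 17.4% and 15.3% of all tested genes were called higher and lower.

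The eIF2a A/A response lay above that of WT cells of run 2 for 13 members and below it for 0 in the limma fit (21 and 0 at an unadjusted p under 0.05), beside 5.62% and 7.29% of all tested genes, with a median of 0.99. Insig1 (2.99 ± 0.33, adjusted p = 8.05e-05, limma), Idi1 (2.16), Scd2 (1.92), Dhcr7 (1.91) and Cyp51 (1.85) differed most. Against WT cells of run 1 it was higher for 3 members (Acat2, Insig2 and Abca1, the last against arrays not well above background) and lower for 3 (Msmo1, Fdps and Acaca), beside 12.2% and 13.5% of all tested genes, with a median of -0.05. The count and direction thus depended on the WT line, and both comparisons cross scan runs.

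In Fv2E-PERK cells 5 members fell with AP, which activates the PERK fusion without tunicamycin. Of the members 0 were higher and 5 lower in the limma fit (0 and 18 at an unadjusted p under 0.05), beside 3.72% and 2.05% of all tested genes, and the median was -0.66 against 0.08. Changes lay below zero for 18 of 18 sterol enzymes, from -0.34 (Sqle) to -1.14 (Fdps), and for 6 of 6 fatty acid genes. Fdps was at 5.84 and 5.76 in treated and 6.89 and 6.98 in untreated cells (-1.14 ± 0.23, adjusted p = 0.0111, limma), and Insig1 at -1.14 and -1.45 in treated and -0.48 and -0.03 in untreated cells (-1.04 ± 0.23, adjusted p = 0.0183). Fibroblast markers moved with these genes: their summed level was 335 to 344 in treated and 688 to 697 in untreated cells, 9 of 9 lay below zero with a median of -0.89, and 2 were called lower. Their part in the members' values was not tested. Acat2 (-0.99), Pmvk (-0.79), the phosphomevalonate kinase gene, and Tm7sf2 (-0.77) also fell. Leaving out 1 Fv2E-PERK array left fewer genes called, among the members as among all tested genes. The median over the members was then -0.72 to -0.60. Fitting only the arrays of run 3 called 26 members, all lower, where 11.5% of all tested genes were called lower.

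**Figure D4:**
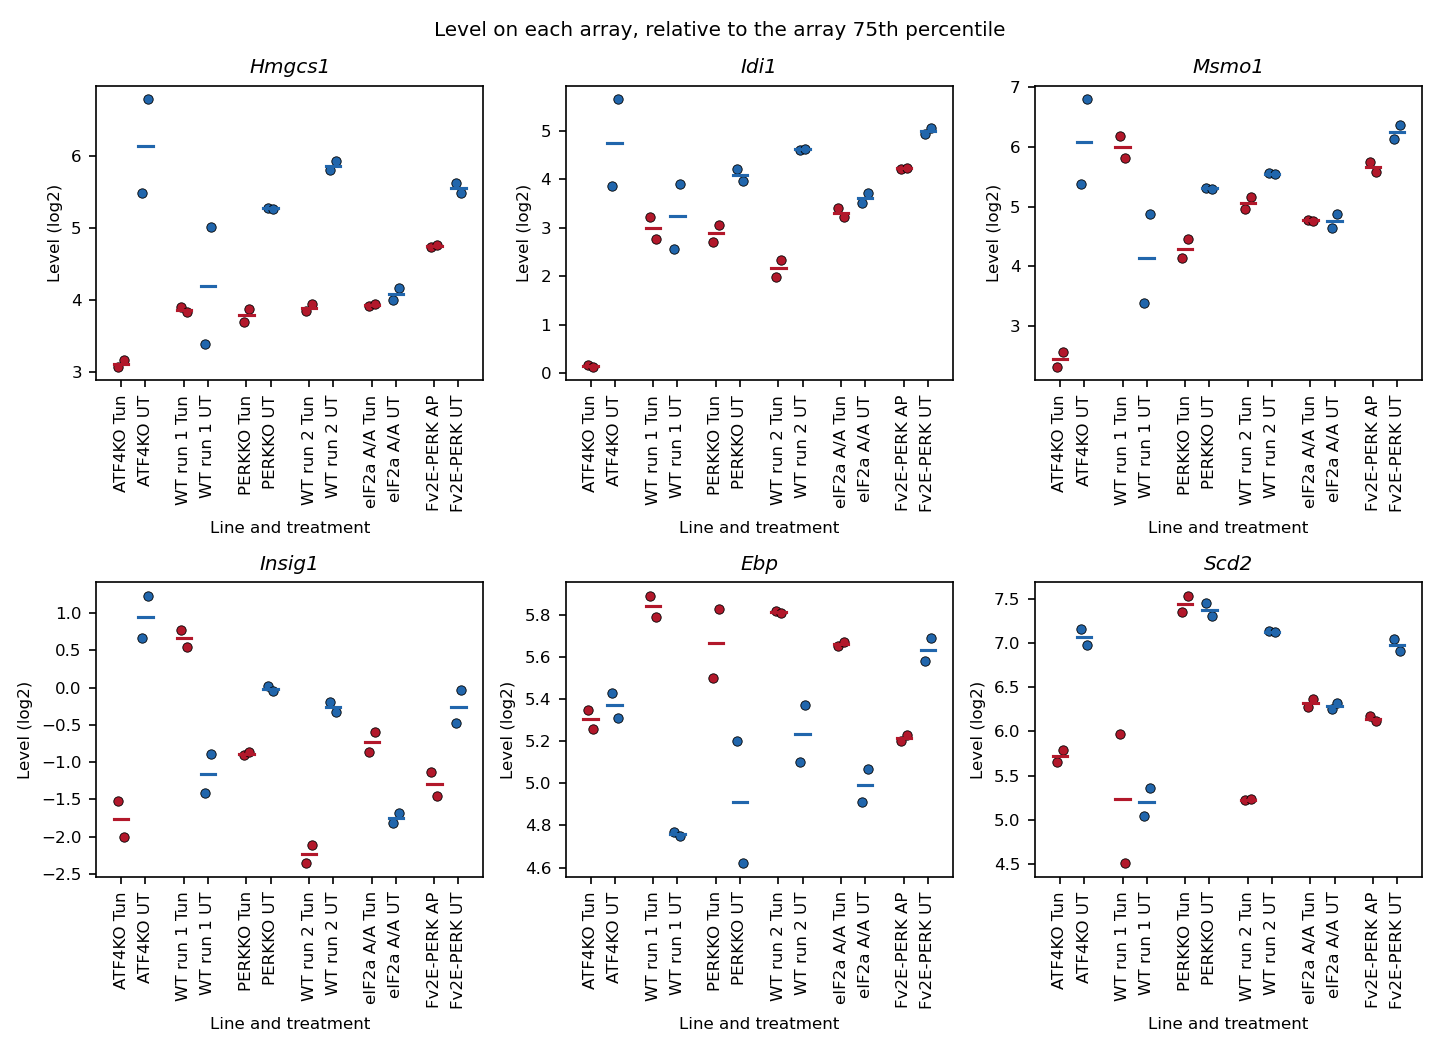
Level on each array (log2, relative to the array 75th percentile) of 6 genes; each point is 1 array, bars are means of 2, red is treated (Tun or AP) and blue untreated. Idi1 lies at 0.17 and 0.13 in treated ATF4KO cells, Insig1 runs in opposite directions in both WT lines, and Scd2 stays between 7.30 and 7.53 in PERKKO cells.

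Among the regulators, Srebf2, which encodes the SREBP that serves the sterol branch, fell with the enzymes in ATF4KO cells and in WT cells of run 2. It changed by -2.37 ± 0.29 in ATF4KO cells (adjusted p = 5.39e-05, limma), where the levels were -0.79 and -0.76 in treated and 1.19 and 2.00 in untreated cells. In WT cells it changed by -1.12 ± 0.29 in run 2 (adjusted p = 0.0138) and by 0.38 ± 0.29 in run 1, where it was not called. Its second probe gave -0.17 in run 1. Srebf2 changed by -0.84 in Fv2E-PERK, -0.13 in PERKKO and -0.40 in eIF2a A/A cells, and was not called there. The medians of the sterol enzymes in these responses were -0.71, -0.68 and 0.08. Srebf1, which encodes the SREBP of the fatty acid branch, was called lower in the ATF4KO response (-0.80 ± 0.26, adjusted p = 0.0306, limma) and was at -0.20 to 0.24 in the other responses, where it was not called. The difference between the ATF4KO response and that of WT of run 1 was -0.89 and was not called (adjusted p = 0.0777, limma). Scap, which encodes the escort protein of the SREBPs, rose by 0.45 in the WT line of run 1 and by 0.50 in that of run 2. Insig2 passed the test in none of the 6 responses, with changes of -0.50 to 0.33, while Insig1 passed in 5 of them and was at -0.87 ± 0.23 in PERKKO cells. Stard4, a carrier of cholesterol between membranes, changed like the enzymes, by -2.30 in ATF4KO cells and -1.21 in WT cells of run 2.

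The exporters Abca1 and Abcg1, which are targets of the oxysterol-sensing LXR receptors, were dim. Abca1 was not well above background on either treated WT array of run 1 and was at least 9.09-fold lower there than in untreated cells (measured means -5.28 and -1.23, adjusted p = 0.00215, limma). Its levels in ATF4KO cells were -1.07 and -0.27 after treatment and -0.98 and -3.02 before it.

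Ebp, the sterol isomerase, was called higher in 4 of 6 responses, those of WT of both runs, PERKKO and eIF2a A/A cells, and changed by -0.42 ± 0.17 in Fv2E-PERK cells, where it was not called. It was at 5.82 and 5.81 in treated and 5.10 and 5.37 in untreated WT cells of run 2, and at 5.89 and 5.79 in treated and 4.77 and 4.75 in untreated WT cells of run 1. The treated arrays lay above the untreated ones in both lines. Its changes were 0.58 ± 0.17 in run 2 (adjusted p = 0.0225, limma) and 1.07 ± 0.17 in run 1 (adjusted p = 0.000179). Acat2 was the enzyme called lower in most responses, 5 of 6, with 0.40 ± 0.20 in eIF2a A/A cells, where it was not called.

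Of 17 further genes of sterol handling, 1 was higher and 6 lower in ATF4KO cells, beside 13.3% and 18.2% of all tested genes. Of 20 further genes of fatty acid and lipid synthesis 2 were higher and 12 lower there. Lbr, a sterol reductase of the nuclear envelope (-1.43), Rdh11 (-1.37) and Aacs, the acetoacetyl-CoA synthetase gene (-1.26), fell most in the sterol list. Acsl3, a long-chain acyl-CoA synthetase gene, fell by 1.97 and the desaturase gene Fads2 by 1.54, while Acacb, the gene of the mitochondria-bound acetyl-CoA carboxylase, rose by 1.69. In WT cells of run 2 the sterol list had 4 higher and 1 lower, led by Erlin1 (2.04), which encodes an ER membrane protein of protein degradation, and the lipid list 4 higher and 5 lower, led by Acss2 (-1.41), a cytosolic acetyl-CoA synthetase gene. Of all tested genes 11.9% were called higher and 8.82% lower in that line. In WT cells of run 1 the sterol list had 6 higher and 4 lower, with Ch25h, the cholesterol 25-hydroxylase gene, at -5.22 (well above background on 1 of 2 treated arrays), Cyp7b1, which breaks down oxysterols, at -4.44, and Erlin1 at 1.86. The lipid list had 6 higher and 3 lower there, with Mid1ip1, which encodes an activator of acetyl-CoA carboxylase, at 2.05 and Fads2 at 1.39. These counts stood beside 20.0% and 16.5% of all tested genes. In PERKKO cells 1 sterol gene was higher, Rdh11 (0.89), and 4 lipid genes were higher and 2 lower, with Dgat2, a triglyceride synthesis gene, at -1.39. There 2.45% of all tested genes were called higher and 0.747% lower. In eIF2a A/A cells the lists had 2 higher and 0 lower and 2 higher and 1 lower, with Rdh11 at 1.25 and Dgat2 at -2.12. The shares of all tested genes were 3.75% and 2.45%. In Fv2E-PERK cells the lists had 2 higher and 1 lower and 1 higher and 1 lower, with Nr1h3, which encodes the oxysterol receptor LXRα, at 2.67 and Dgat2 at 1.37. Here the shares were 3.72% and 2.05%.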

How the data were processed

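RNA of 24 samples was hybridised, 1 Cy3-labelled sample per array. Per the submitters' processing notes, images were read by Agilent Feature Extraction, version 10.7.1.1. Each deposited scanner file holds a processed signal, a linear intensity after background correction, per the file headers, with no normalization between arrays. They also give background flags coded 0 or 1. The authors' deposited table holds log2 values of the same arrays, and 99.3% of them differed by at most 0.001 from log2 of the processed signal scaled to each array's 75th percentile and centred per probe; the baseline of that centring is unknown.

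Spots of a probe were averaged without outlier spots and control spots, log2 was taken and each array's 75th percentile subtracted. Of 55681 probes 26574 were named to 1 gene by accession, through a RefSeq table of GRCm38.p6, and 29107 stayed unnamed, 57 of them because array design versions disagreed. The brightest of a gene's probes stood for it. For 11 members with further probes, 68 called changes had the same sign in those probes in every case. Tests were kept to genes whose probe stood well above background on both arrays behind at least 1 of 12 means, and 5274 genes were put aside. A floor for dim groups was the higher of the probe's own signal and the lowest signal well above background, per array.

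Changes were tested with limma 3.58.1 in R 4.3.3 (lmFit and eBayes, two-sided), in 1 fit of 12 means over 24 arrays with 12 residual and 2.17 prior degrees of freedom, and adjusted after Benjamini and Hochberg within each of 14 contrasts. The fit was checked on simulated data. Means rest on 2 arrays, which limits the precision. Same-numbered treated and untreated replicates did not deviate together (correlations of -0.48 in PERKKO and -0.01 to 0.07 elsewhere), so the numbers were not taken as pairs. Named genes were all members, the check genes, and genes of both further lists called among the 3 largest changes of their list in a contrast, of which a part is given. The members, lists and tests were chosen with earlier results of these data known. Quantile normalization, normexp background correction, no filter on dim probes, mean probes, array weights, blocks for replicate, slide and scan day, the authors' table and leaving out arrays were tried as alternatives.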

Additional observations from a re-analysis of the deposited data

Results flagged for a closer look

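Of 64 outlier tests, on the level of each member over the 4 treated and over the 4 untreated WT arrays, 4 found an array apart by Dixon's criterion, where chance gives about 1 in 20. The highest treated array was 4.15 for Sc5d and -0.12 for Dhcr7, both replicate 1 of run 1. The lowest treated array was -2.66 for Srebf1, replicate 2 of run 1, and the lowest untreated array was 4.79 for Acly, replicate 1 of run 1. These groups of 4 join both WT lines.

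The tunicamycin response differed between the WT lines for 17 members in the limma test of the difference, run 2 minus run 1. Among mevalonate enzymes the difference was -1.49 for Mvk, -1.63 for Mvd, -2.22 for Idi1 and -2.37 for Fdps. Among later sterol enzymes it was -1.52 for Fdft1, -1.37 for Sqle, -2.12 for Lss, -2.14 for Cyp51, -1.44 for Tm7sf2, -2.37 for Msmo1 and -1.41 for Hsd17b7. It was -1.50 for Srebf2, -3.79 for Insig1 and -1.72 for Stard4, and 4.59 for Abca1, which was not well above background on either treated array of run 1. Of the fatty acid genes Acaca (-0.74) and Scd2 (-1.94) differed. The difference of Scd2 rests on treated WT arrays of run 1 at 5.97 and 4.51.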

How the results depend on the processing

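The counts of members called rest on duplicate arrays and on a spread that the fit shares between scan runs. With only the arrays of the scan runs compared, the counts moved to 5 in WT of run 1, 8 in ATF4KO, 9 in eIF2a A/A and 26 in Fv2E-PERK, and for the differences to 6 (WT run 2 minus run 1), 11 (PERKKO minus WT), 8 (ATF4KO minus WT), 3 and 24 (eIF2a A/A minus WT of runs 1 and 2), 16 (untreated PERKKO minus WT) and 5 (untreated ATF4KO minus WT). The shares of all tested genes called were 8.73%, 1.1%, 32.6% and 31.3% for these responses, in the same order. For these differences they were 2.81%, 14.8%, 3.14%, 18.1%, 33.9%, 50% and 5.93%. With array weights the counts of members moved to 8 in WT of run 1, 11 in eIF2a A/A and 25 in Fv2E-PERK, and to 15 for PERKKO minus WT, 26 for eIF2a A/A minus WT of run 2, 17 for untreated PERKKO and 16 for untreated ATF4KO. Of the 14864 tested genes, array weights called 2673, 5299 and 5897 in these responses. For these differences they called 2933, 6641, 7735 and 1014, in the same order. Quantile normalization gave 10 in PERKKO, normexp background correction 0 in eIF2a A/A, and no filter on dim probes 1 there. Over all genes in each fit they called 609, 586 and 673. The replicate block, whose numbers did not pair the samples, gave 1 in PERKKO, 0 in eIF2a A/A, 2 in Fv2E-PERK, 9 for the WT lines' difference and 0 for PERKKO minus WT. Over all tested genes it called 330, 681, 539, 922 and 934, in the same order. The next alternatives were chosen after seeing the data. Scan day as a block in run 1 gave 22 in WT of run 1 and 15 for eIF2a A/A minus WT of run 1. It called 7083 and 5806 of all tested genes there. With only the PERKKO arrays on the WT slide, the medians over the members were -0.46 in PERKKO and 0.77 in its difference from WT. Each PERKKO group keeps 1 array there, and fewer members and fewer of all tested genes were called in both. Crossing the PERKKO replicate numbers, which is the slide term of run 2, gave 5 for the PERKKO response and 5 for its difference from WT. It called 462 and 1188 of all tested genes. The planned slide term in run 3 could not be fitted, since each slide there held 1 genotype. The causes were not tested.

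Leaving out 1 array at a time gave 11 to 15 members in WT of run 1 (7 to 13 higher and 2 to 6 lower, with medians of -0.13 to 0.46), 15 to 17 in WT of run 2, 0 to 5 in PERKKO, 24 to 26 in ATF4KO, 0 in eIF2a A/A and 0 to 1 in Fv2E-PERK. For the differences it gave 10 to 20 between the WT lines, 1 to 4 for PERKKO, 26 to 30 for ATF4KO, 2 to 9 and 9 for eIF2a A/A against WT of runs 1 and 2, 7 to 10 for untreated PERKKO and 17 to 26 for untreated ATF4KO. Scd2 reversed: leaving out 1 array gave -0.69 (without treated WT replicate 1) to 0.78 (without replicate 2) in WT of run 1, and 0.72 to -0.75 for eIF2a A/A minus WT of run 1. No other member's called change turned its sign under any alternative run.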
